A study of Mus musculus with 24 samples.

Results

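The genes described here mark 2 cell layers that line the fluid spaces of the brain: 25 genes of the choroid plexus epithelium and 7 genes of the motile cilia that ependymal cells carry. The 32 genes are a list of marker names that was drawn up with earlier results of these data known, though no measured value enters its rule, and all 32 were found among the 26667 genes of the deposited count table. The tissue was the hippocampal dentate gyrus, read as 1 RNA-seq library per mouse in 24 mice. The groups were APP/PS1 mice given BCI-838 plus exercise (5 libraries), APP/PS1 mice with exercise alone (5) and APP/PS1 mice given BCI-838 alone (4). The others were APP/PS1 mice with neither, called APP/PS1 controls here (5), and WT mice of the strain C57BL6/J (5). BCI-838, an oral prodrug of an antagonist of the glutamate receptors mGluR2 and mGluR3, was dosed at 5 mg/kg daily by mouth for 1 month, and exercise was free access to a running wheel for 1 month. A treatment time of 1 month, with no dose, is recorded for the APP/PS1 controls as well, and none is recorded for the WT mice. All 4 APP/PS1 groups carry the amyloid transgenes. The sources used here do not give the promoter that drives them or the ages of the mice.

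The choroid plexus is a fringe of epithelium that hangs into the ventricles and secretes cerebrospinal fluid by moving ions and water from blood. It also makes carrier proteins, of which transthyretin (Ttr) is the best known. Ependymal cells line the ventricle walls and beat bundles of motile cilia, whose genes are switched on by the transcription factor Foxj1 together with RFX factors; choroid epithelial cells carry cilia as well. Neither layer is part of the dentate gyrus, though both border the hippocampus. In bulk tissue, fewer cells of a type and less RNA per cell cannot be told apart.

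Total counts ran from 48656360 to 64632882 per library. The 8 dentate granule neuron genes (such as Prox1 and Calb1) had counts in every library and summed to between 268 and 1483 CPM (read counts relative to the library size, after TMM scaling). Among the 24 libraries, 4 stood apart, each with over 100 CPM of Ttr: replicates 2, 4 and 5 of the APP/PS1 controls and replicate 5 of BCI-838 plus exercise. Results that rest on them are given with and without them. They were picked by their Ttr level. A test of Ttr, or of genes that rise with it, in the remaining libraries is therefore not independent of that choice. Leaving them out keeps only replicates 1 and 3 of the controls, and Tmem72 then falls below the filter on low counts, so that 31 of the 32 genes are tested. All groups share 1 estimate of the spread, so the 4 libraries also enter the SE and p of comparisons between groups that do not hold them.

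Ttr carries thyroxine and retinol-binding protein in cerebrospinal fluid. It stood at 1.67, 2.01, 3.39, 2.29 and 297 CPM with BCI-838 plus exercise, at 1.15, 7.89, 4.00, 2.52 and 4.63 CPM with exercise, and at 2.51, 1.41, 0.573 and 1.26 CPM with BCI-838. APP/PS1 controls had 5.05, 425, 1.62, 1615 and 1269 CPM, against 15.6, 8.62, 3.49, 14.1 and 6.28 CPM in WT mice. The controls thus split into 3 libraries at 425 CPM or more and 2 at or below 5.05 CPM, and no other group held more than 1 library over 100 CPM. Per kilobase of exon, Ttr had a median level of 3.16 CPM over the 24 libraries and a highest level of 1362 CPM. Enpp2, the secreted enzyme that makes lysophosphatidic acid, had the higher median per kilobase, at 34.2 CPM, with a highest level of 126 CPM.

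**Figure D1:**
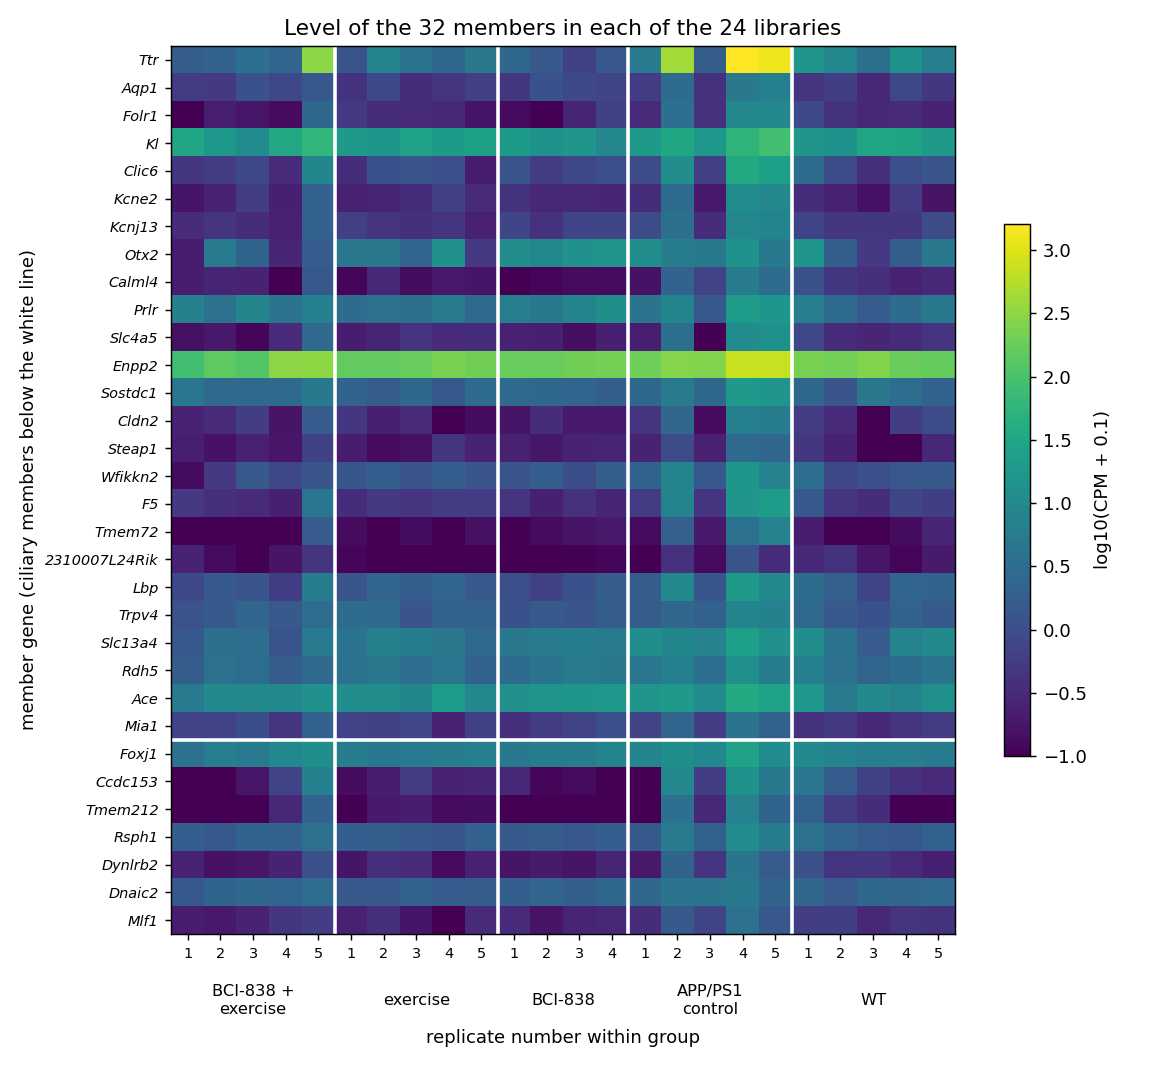
Level of the 32 genes (rows, log10 of CPM + 0.1) in each library (columns, replicates within the 5 groups), with choroid epithelial genes above the white line and ciliary genes below it. Control replicates 2, 4 and 5 and BCI-838 plus exercise replicate 5 form bright columns, and 31 of 32 genes have their highest library among these 4.

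Of the 32 genes, 24 were highest in control replicate 4 and 7 in control replicate 5. Otx2 was the exception, with its highest level in BCI-838 replicate 4. For 19 genes the 4 libraries over 100 Ttr CPM were also the 4 highest of the 24, for 10 genes 3 of them were, and for Otx2, Prlr and Slc13a4 fewer than 3 were.

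Ion and water transport is the central task of the choroid epithelium, and several of the genes encode channels or transporters for it. Kcne2, an accessory subunit of potassium channels, lies on chromosome 16 from 92292389 to 92298129 (GRCm38). Its levels were 0.0740, 0.155, 0.484, 0.131 and 1.97 CPM with BCI-838 plus exercise, 0.144, 0.173, 0.257, 0.517 and 0.215 CPM with exercise, and 0.318, 0.206, 0.202 and 0.188 CPM with BCI-838. The APP/PS1 control libraries held 0.259, 2.89, 0.0973, 11.2 and 8.68 CPM, against 0.237, 0.154, 0.0595, 0.446 and 0.0687 CPM in WT mice. The 4 libraries over 100 Ttr CPM lay at or above 1.97 CPM of Kcne2 and the other 20 at or below 0.517 CPM. Kcnj13, which encodes the inward rectifier Kir7.1, had the same 4 libraries on top, at 2.01 CPM in BCI-838 plus exercise replicate 5 and 3.48, 8.86 and 7.73 CPM in control replicates 2, 4 and 5, and its remaining libraries ran from 0.143 to 0.807 CPM. Clic6, of the chloride intracellular channel family, reached 8.36 CPM in BCI-838 plus exercise replicate 5 and 11.3, 35.9 and 23.9 CPM in those controls.

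Aqp1, the water channel of the apical membrane, lies on chromosome 6 from 55336432 to 55348555. It had 0.444, 0.402, 1.05, 0.719 and 1.34 CPM with BCI-838 plus exercise, 0.307, 0.744, 0.257, 0.323 and 0.538 CPM with exercise, and 0.388, 1.06, 0.758 and 0.665 CPM with BCI-838. In APP/PS1 controls it was at 0.441, 2.87, 0.292, 4.73 and 6.502 CPM, against 0.336, 0.502, 0.198, 0.705 and 0.360 CPM in WT mice. Controls 1 and 3 sat within the WT range and the other 3 controls above it. Slc4a5, a sodium bicarbonate cotransporter, reached 13.1 CPM in control replicate 5, where Aqp1 was also highest. Trpv4, a cation channel opened by osmotic and mechanical stimuli, spanned less, from 1.04 to 7.70 CPM over all libraries. Slc13a4, a sulfate transporter, is described further on.

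The secreted and receptor genes followed the same libraries to different degrees. Folr1, the folate receptor that moves folate into cerebrospinal fluid, had 0, 0.124, 0.0807, 0.0327 and 2.46 CPM with BCI-838 plus exercise, 0.397, 0.242, 0.220, 0.194 and 0.0717 CPM with exercise, and 0.0353, 0, 0.168 and 0.546 CPM with BCI-838. In APP/PS1 controls it was at 0.213, 3.37, 0.292, 8.63 and 8.72 CPM, against 0.751, 0.309, 0.198, 0.223 and 0.154 CPM in WT mice. Outside the 4 libraries Folr1 stayed at or below 0.751 CPM. Kl, which encodes klotho, and Enpp2 kept a clear level in every library: Kl ran from 8.70 to 84.9 CPM and Enpp2 from 84.5 to 728 CPM. Enpp2 is also a gene of oligodendrocytes. Its next highest libraries after controls 5 and 4 were BCI-838 plus exercise replicates 5 and 4, at 305 and 303 CPM, and the second of these had 2.29 CPM of Ttr but the highest sum over 7 oligodendrocyte genes (11673 CPM, against 2100 to 9098 CPM in the other libraries).

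Among the other secreted proteins, F5, coagulation factor V, ranged from 0.131 to 20.2 CPM, and Sostdc1, an inhibitor of BMP and Wnt signals, from 1.20 to 17.8 CPM. Lbp, which binds bacterial lipopolysaccharide, ranged from 0.506 to 18.7 CPM. Mia1, a small secreted protein, had 0.592, 0.603, 0.928, 0.343 and 1.99 CPM with BCI-838 plus exercise, 0.595, 0.554, 0.697, 0.162 and 0.574 CPM with exercise, and 0.265, 0.463, 0.623 and 0.973 CPM with BCI-838. The APP/PS1 control libraries held 0.639, 2.26, 0.486, 4.02 and 1.92 CPM, against 0.316, 0.424, 0.198, 0.334 and 0.446 CPM in WT mice. Mia1 was the one member whose 5 control libraries all lay above every WT library. Tmem72, a membrane protein, had no count in 9 libraries and 7.31 CPM in control replicate 5. Calml4, a calmodulin-like protein, ranged from 0 to 5.38 CPM, Wfikkn2, which binds the growth factors GDF8 and GDF11, from 0.0370 to 16.7 CPM, and 2310007L24Rik (Prr29 in the annotation) from 0 to 1.14 CPM. Prlr, the prolactin receptor, ranged from 1.36 to 20.2 CPM, Ace, the angiotensin-converting enzyme, from 5.23 to 37.9 CPM, and Rdh5, a retinol dehydrogenase, from 1.61 to 13.0 CPM. These last 3 had a clear level in every library. Cldn2, the claudin of leaky tight junctions, ranged from 0 to 6.52 CPM, and Steap1, of a family of metalloreductases, from 0 to 2.65 CPM.

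**Figure D2:**
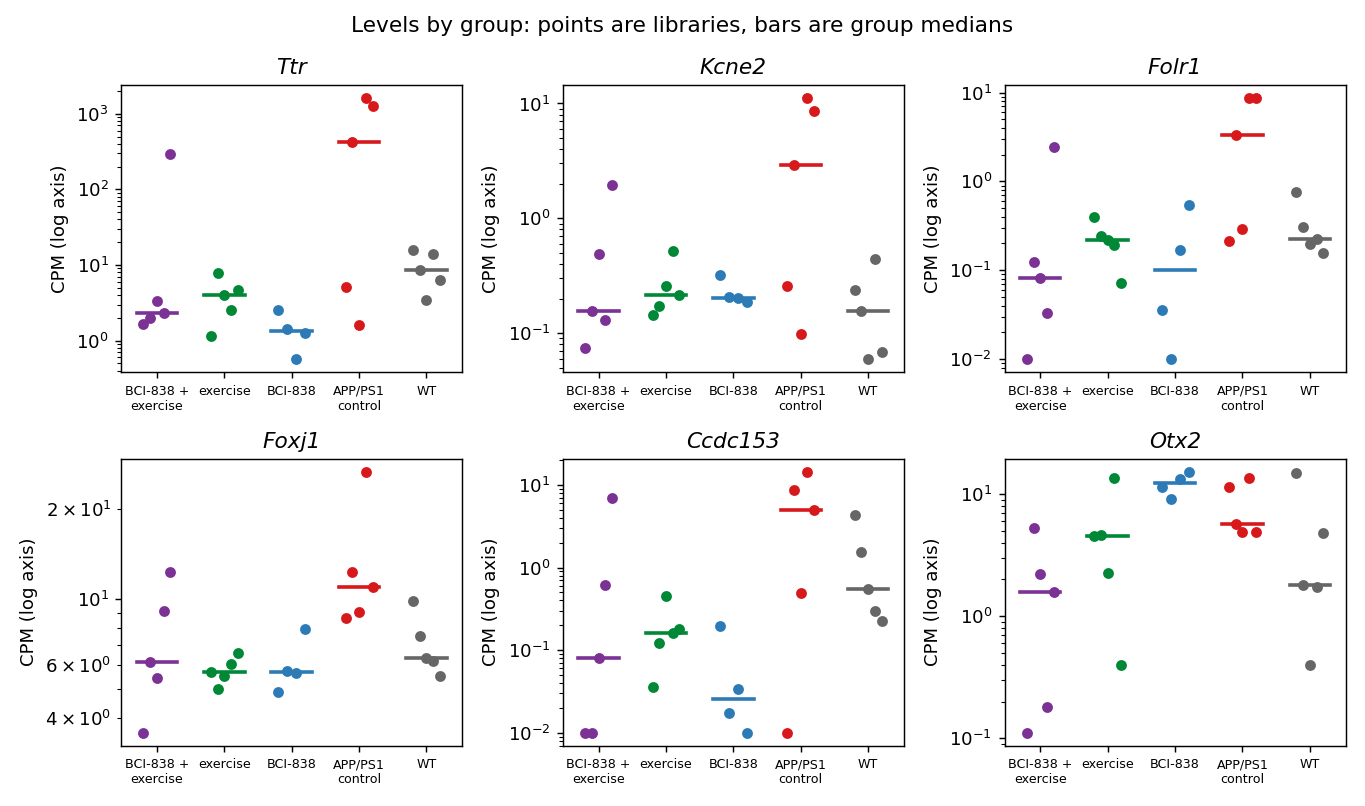
CPM (log axis, values of 0 drawn at 0.01) of 3 choroid genes (Ttr, Kcne2, Folr1), 2 ciliary genes (Foxj1, Ccdc153) and Otx2 in the 5 groups; each point is a library and each bar a group median. The points of the APP/PS1 controls spread widest for Ttr, from 1.62 to 1615 CPM, and Foxj1 spreads far less, from 8.60 to 26.6 CPM.

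The ciliary genes were led by Foxj1, the master regulator of motile cilia, on chromosome 11 from 116330704 to 116335399. It had 3.57, 6.16, 5.45, 9.08 and 12.3 CPM with BCI-838 plus exercise, 5.72, 5.02, 5.54, 6.06 and 6.58 CPM with exercise, and 4.87, 5.75, 5.66 and 7.95 CPM with BCI-838. The controls had 8.60, 12.3, 9.03, 26.6 and 10.98 CPM, against 9.87, 7.52, 6.34, 6.22 and 5.53 CPM in WT mice. All 5 controls, including the 2 with low Ttr, lay above every library of the exercise and of the BCI-838 group. Ccdc153, a coiled-coil protein used as an ependymal marker, had 0, 0, 0.0807, 0.621 and 7.04 CPM with BCI-838 plus exercise, 0.0361, 0.121, 0.458, 0.162 and 0.179 CPM with exercise, and 0.194, 0.0172, 0.0337 and 0 CPM with BCI-838. The controls had 0, 8.64, 0.486, 14.5 and 4.97 CPM, against 4.35, 1.56, 0.555, 0.297 and 0.223 CPM in WT mice. WT replicate 1 stood out here, with a Ccdc153 level near that of control replicate 5 beside only 15.6 CPM of Ttr, and it was also the highest WT library for Tmem212 (1.898 CPM), Dynlrb2 (0.989 CPM) and Rsph1 (3.72 CPM).

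Dnaic2, an intermediate chain of the outer dynein arm that drives ciliary beating, varied less than the other ciliary genes, with 1.37, 2.21, 2.40, 2.29 and 3.05 CPM in BCI-838 plus exercise, 1.39, 1.42, 2.02, 1.58 and 1.67 CPM in exercise, and 1.68, 2.25, 1.77 and 2.46 CPM in BCI-838 libraries. APP/PS1 controls had 2.37, 4.05, 4.00, 4.84 and 2.13 CPM, against 2.31, 1.49, 2.40, 2.36 and 2.73 CPM in WT mice. The exercise libraries all lay below the controls. Mlf1, a gene of ciliated epithelia, had 0.111, 0.0928, 0.161, 0.359 and 0.492 CPM with BCI-838 plus exercise, 0.144, 0.277, 0.0733, 0 and 0.215 CPM with exercise, and 0.212, 0.0686, 0.168 and 0.205 CPM with BCI-838. APP/PS1 controls had 0.244, 1.39, 0.665, 3.68 and 1.30 CPM, against 0.475, 0.502, 0.198, 0.334 and 0.309 CPM in WT mice. The BCI-838 libraries all lay below the controls. Rsph1, a radial spoke head protein, ranged from 1.23 to 10.8 CPM, Dynlrb2, a dynein light chain, from 0.0323 to 4.06 CPM, and Tmem212 from 0 to 7.12 CPM.

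RFX factors bind the X-box of ciliary promoters, and GTTGCC is one arm of that motif. Promoter windows of 300 bases, most of it before the start site (RefSeq, GRCm38.p6), were held for 5 of the 7 ciliary genes and 19 of the 25 choroid genes. GTTGCC, read on both strands (GGCAAC on the other), was found in 4 of the 5 ciliary windows and in 5 of the 19 choroid windows (Aqp1, Kcne2, Otx2, Steap1 and Wfikkn2), beside 12.5% of all 32851 promoter windows. TAATCC, the core bound by OTX proteins, was in 1 ciliary and 2 choroid windows (7.06% of all), and GTAAACA, a forkhead core, in 1 of each (3.65% of all). Tmem212 was the ciliary window without GTTGCC. All 7 ciliary genes, Tmem212 among them, and 24 of the 32 members had their highest level in control replicate 4, so that library does not set the genes with the motif apart. The 4 ciliary windows with GTTGCC are shown. They are, on the plus strand, Dynlrb2 at chr8:116504765-116505064, Dnaic2 at chr11:114727169-114727468, Ccdc153 at chr9:44240427-44240726 and Mlf1 at chr3:67373847-67374146. Capitals mark GTTGCC or GGCAAC, which starts 51, 26, 152 and 105 bases before the start site in that order. No searched motif overlapped another in these windows, and a match is a run of letters, not a measured binding site.
Dynlrb2: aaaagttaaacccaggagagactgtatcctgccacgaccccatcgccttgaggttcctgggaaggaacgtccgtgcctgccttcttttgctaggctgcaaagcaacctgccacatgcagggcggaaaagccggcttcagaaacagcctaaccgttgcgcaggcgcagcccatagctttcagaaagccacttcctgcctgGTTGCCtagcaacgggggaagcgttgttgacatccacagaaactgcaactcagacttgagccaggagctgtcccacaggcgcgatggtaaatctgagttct
Dnaic2: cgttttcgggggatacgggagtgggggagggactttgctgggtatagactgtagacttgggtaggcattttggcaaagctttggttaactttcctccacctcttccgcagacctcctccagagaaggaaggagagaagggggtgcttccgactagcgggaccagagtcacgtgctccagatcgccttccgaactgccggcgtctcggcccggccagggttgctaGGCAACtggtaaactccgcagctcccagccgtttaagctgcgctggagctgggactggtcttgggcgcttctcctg
Ccdc153: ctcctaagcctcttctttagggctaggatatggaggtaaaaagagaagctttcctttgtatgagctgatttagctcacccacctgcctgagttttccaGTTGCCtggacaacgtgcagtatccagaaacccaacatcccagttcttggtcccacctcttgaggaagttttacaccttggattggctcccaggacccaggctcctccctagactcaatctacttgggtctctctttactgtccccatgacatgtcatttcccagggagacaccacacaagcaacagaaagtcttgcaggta
Mlf1: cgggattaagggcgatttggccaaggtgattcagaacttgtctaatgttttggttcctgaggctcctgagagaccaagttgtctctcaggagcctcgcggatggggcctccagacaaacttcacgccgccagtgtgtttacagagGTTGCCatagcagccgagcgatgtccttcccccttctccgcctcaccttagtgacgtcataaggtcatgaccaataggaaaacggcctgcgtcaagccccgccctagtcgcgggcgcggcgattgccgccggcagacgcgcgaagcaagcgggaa

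Setting each gene against Ttr within a library separated the choroid genes from the ciliary ones in part. Over the 4 libraries above 100 Ttr CPM, where Ttr itself spanned 297 to 1615 CPM, Kcne2 had 6.63 counts per 1000 Ttr counts in BCI-838 plus exercise replicate 5 and 6.79, 6.91 and 6.84 in control replicates 2, 4 and 5. That is a range of 1.04-fold, the narrowest of the 31 genes. Steap1 (1.17-fold), Cldn2 (1.38-fold), Kcnj13 (1.49-fold) and Clic6 (1.497-fold) came next. Of the 24 choroid genes other than Ttr, 12 kept within 2-fold and 18 within 3-fold, with a median range of 2.02-fold. These ratios include any level that a gene has in libraries with little Ttr, so a narrow range alone does not show that it followed Ttr. Slc13a4 and Prlr were among the 12. In BCI-838 plus exercise replicate 5 they were at 1.01 and 1.28 times their medians over 24 libraries. The median of such multiples in that library over the 24 choroid genes was 3.48. None of the 7 ciliary genes kept within 2-fold and 1 (Rsph1, 2.81-fold) kept within 3-fold, with a median of 4.62-fold and a widest of 6.13-fold for Dnaic2. A gene with an unchanged level would show a range as wide as that of Ttr itself. In these 4 libraries Dnaic2 was at 0.938 to 2.13 times its median over 24 libraries and Foxj1 at 1.75 to 4.23 times. Ccdc153 was at 23.8 to 69.5 times its median. The choroid genes wider than 3-fold were Rdh5, Otx2, Mia1, Wfikkn2, 2310007L24Rik and Kl, so the measure does not divide the classes cleanly. Kl, which kept a clear level in libraries with little Ttr, had 196 counts per 1000 Ttr counts in BCI-838 plus exercise replicate 5 and 77.6, 33.6 and 66.9 in control replicates 2, 4 and 5.

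**Figure D3:**
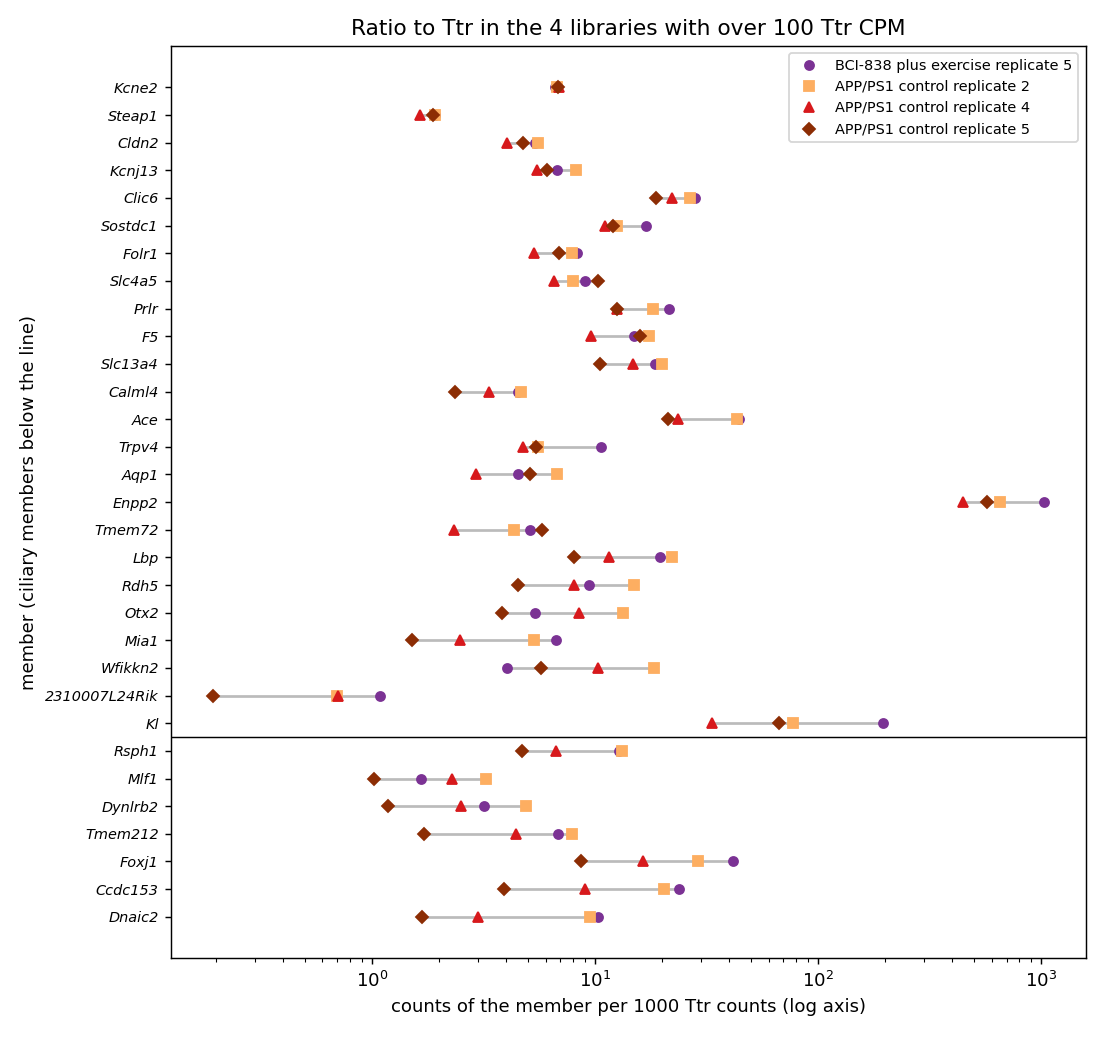
Counts of each gene per 1000 Ttr counts (log axis) in BCI-838 plus exercise replicate 5 and control replicates 2, 4 and 5; each row is a gene, with grey lines from the lowest to the highest of the 4 ratios and the ciliary genes below the black line. The symbols of Kcne2 lie between 6.63 and 6.91, and those of the ciliary genes spread over 2.81-fold to 6.13-fold.

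Controls 4 and 5 had similar Ttr (1615 and 1269 CPM) and differed in the ciliary genes, in some choroid genes and in genes of other tissues. Foxj1 was at 26.6 CPM in control 4 and 10.98 CPM in control 5, and Ccdc153 was at 14.5 and 4.97 CPM. All 7 ciliary genes were higher in control 4, by 1.82-fold to 3.30-fold (median 2.72-fold). Of the 24 choroid genes, 17 were higher in control 4, by a median over all 24 of 1.22-fold, with Aqp1, F5, Slc4a5, Tmem72 and Kl among those higher in control 5. The choroid ratios ran from 0.518-fold to 4.64-fold. 2310007L24Rik (4.64-fold), Otx2 (2.80-fold), Wfikkn2 (2.30-fold), Rdh5 (2.28-fold), Mia1 (2.10-fold) and Lbp (1.84-fold) were within or above the ciliary range. Controls 4 and 5 also differed in the sums of meningeal (203 and 105 CPM), thalamus and habenula (639 and 69.5 CPM) and dorsal midbrain genes (49.9 and 2.60 CPM). Each is a comparison of 2 single mice, so it has no replicate check.

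Otx2 did not follow Ttr. This homeobox factor is needed to form the choroid plexus and is also expressed in the midbrain. Its levels were 0.111, 5.24, 2.20, 0.180 and 1.59 CPM with BCI-838 plus exercise, 4.56, 4.62, 2.26, 13.6 and 0.395 CPM with exercise, and 11.4, 9.11, 13.4 and 15.2 CPM with BCI-838. Among controls it stood at 11.5, 5.70, 4.86, 13.6 and 4.87 CPM, against 14.9, 1.81, 0.396, 1.75 and 4.81 CPM in WT mice. Pax7, a marker of the dorsal midbrain, was high in the same low-Ttr libraries: 9.86, 6.73, 11.5 and 13.4 CPM with BCI-838, 16.1 CPM in exercise replicate 4, 9.92 CPM in control replicate 1 and 9.45 CPM in WT replicate 1. In the 4 libraries over 100 Ttr CPM, Pax7 was at 0 in BCI-838 plus exercise replicate 5 and at 0, 0.489 and 0 CPM in control replicates 2, 4 and 5, beside Otx2 at 1.59, 5.70, 13.6 and 4.87 CPM. Pax7 does not stand for the whole list of 8 dorsal midbrain genes. Their sum was 0.681 CPM in BCI-838 plus exercise replicate 5, with 5 of the 8 at 0, and 16.5, 49.9 and 2.60 CPM in control replicates 2, 4 and 5, with 2, 0 and 3 at 0. The 49.9 CPM of control replicate 4 was the highest sum of the controls, and Pou4f1, also a gene of the medial habenula and singled out after its values were seen, made up 42.2 CPM of it. The sums ran from 27.9 to 64.1 CPM with BCI-838, with none of the 8 at 0 in any library, against 2.60 to 49.9 CPM in all APP/PS1 controls. Their part in the Otx2 values was not tested.

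Slc13a4 is made by meningeal fibroblasts as well as by the choroid plexus. It had 1.37, 3.50, 3.07, 1.13 and 5.51 CPM with BCI-838 plus exercise, 3.91, 7.04, 6.07, 4.64 and 2.71 CPM with exercise, and 4.66, 5.37, 5.96 and 5.36 CPM with BCI-838. APP/PS1 controls had 12.5, 8.53, 7.12, 23.99 and 13.4 CPM, against 11.5, 3.92, 1.53, 7.50 and 10.3 CPM in WT mice. Every control lay above every BCI-838 plus exercise library, the 2 low-Ttr controls included. The sum over 9 meningeal fibroblast genes (such as Igf2, Ogn and Slc6a13), all with counts in every library, was 39.1, 69.2, 70.7, 31.5 and 85.1 CPM with BCI-838 plus exercise. It was 180.4, 103, 131, 203 and 105 CPM in the controls, against 159, 73.2, 35.4, 113 and 171 CPM in WT mice. In the 5 WT libraries, which had at most 15.6 CPM of Ttr, the order of the meningeal sums and of Slc13a4 was the same except for replicates 1 and 5. In the controls the orders differed more. Control replicate 3 had the lowest Slc13a4 of its group (7.12 CPM) at a sum of 131 CPM, and replicate 5 had 13.4 CPM at 105 CPM. The part of the meningeal genes in the Slc13a4 values was not tested.

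**Figure D4:**
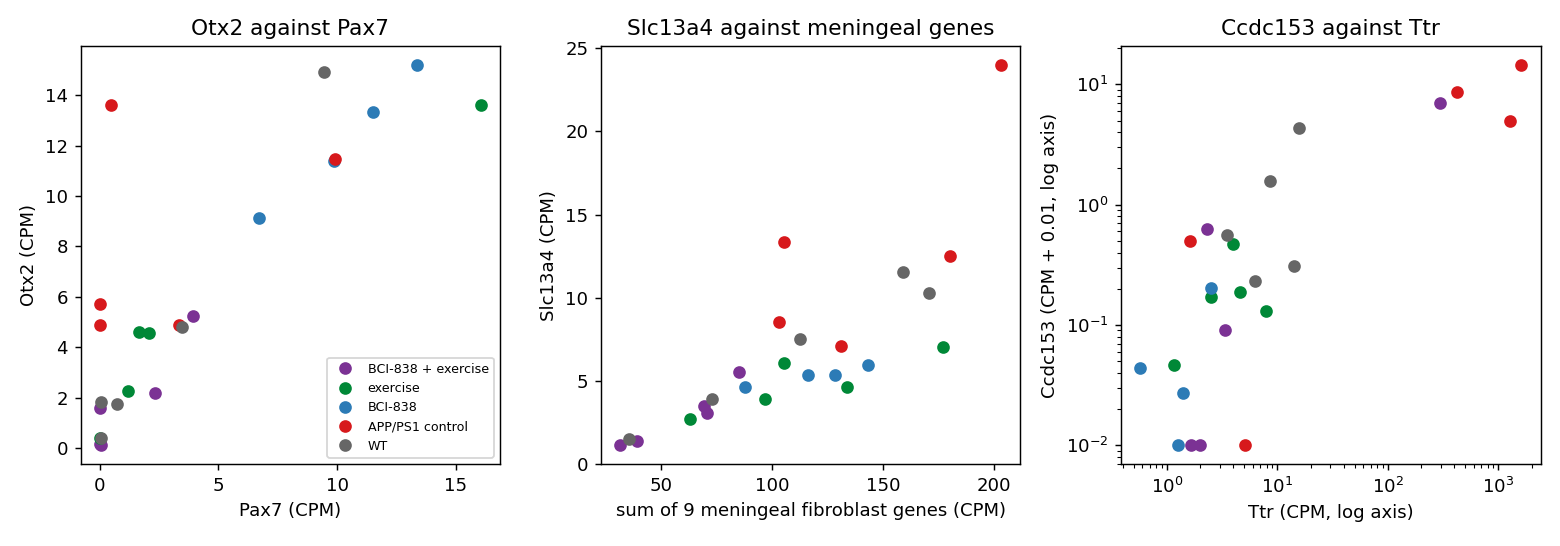
Levels in the 24 libraries, 1 point each, coloured by group: Otx2 against Pax7 (CPM), Slc13a4 against the sum of 9 meningeal fibroblast genes (CPM), and Ccdc153 (CPM + 0.01, log axis) against Ttr (CPM, log axis). Libraries with Pax7 over 5 CPM all have Otx2 at 9.11 CPM or more, control replicate 4 has 13.6 CPM of Otx2 at 0.489 CPM of Pax7 (its 8 dorsal midbrain genes sum to 49.9 CPM), and WT replicate 1 has 4.35 CPM of Ccdc153 at 15.6 CPM of Ttr.

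The treated groups were compared with the APP/PS1 controls to ask what the drug, the wheel and both do in mice with the transgenes. These comparisons share the same 5 control libraries, 3 of which are over 100 Ttr CPM. All 32 genes passed the filter on low counts, and 22 would pass a filter of 1 CPM in 5 libraries. Tests are the quasi-likelihood F test of edgeR across 18286 genes, and the threshold for a call was an adjusted p (Benjamini-Hochberg) of 0.05.

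With BCI-838 plus exercise against APP/PS1 controls, all 32 genes were lower, beside 51.4% of all genes, with a median log2 fold change of -2.14 (all genes -0.01). None was called by edgeR (0% of all genes were), 26 were lower at an unadjusted p under 0.05 (5.73% of all genes were), DESeq2 called 6 lower (0.383% of all) and voom called none. Smallest in p were Wfikkn2, Slc13a4 and Rdh5. Wfikkn2 was at 0.0370, 0.402, 1.37, 0.703 and 1.19 CPM in treated mice, against 2.07, 7.81, 1.36, 16.7 and 7.24 CPM in controls (log2 fold change -3.25, SE 0.65, edgeR adjusted p = 0.229). Only control 3 overlapped the treated range. Slc13a4 had a log2 fold change of -2.17 (SE 0.47, edgeR adjusted p = 0.229) with no overlap between the groups, as for 0.607% of all genes in that direction, and Rdh5 one of -1.35 (SE 0.34, edgeR adjusted p = 0.269). Ttr had a log2 fold change of -3.44 (SE 1.44, edgeR adjusted p = 0.417) and Foxj1 one of -0.88 (SE 0.30, edgeR adjusted p = 0.329). The Ttr value was -8.17 without BCI-838 plus exercise replicate 5 alone and -2.79 without control replicate 4 alone. With the 4 libraries left out the median was -0.56 over 31 genes, 21 lower and 10 higher, 4 of them lower at an unadjusted p under 0.05 (4.9% of all genes), with Slc13a4 still at -2.11 (edgeR adjusted p = 0.408) and Ttr at -0.52 (edgeR adjusted p = 0.789). The 9 meningeal fibroblast genes were all lower in this comparison as well, 8 of them at an unadjusted p under 0.05 and none called by edgeR (6 by DESeq2). So were the 8 thalamus and habenula genes, with a median log2 fold change of -2.20, 6 at that level, none called by edgeR and 2 by DESeq2. Their summed level was 46.0, 185, 126, 56.2 and 60.1 CPM with BCI-838 plus exercise, against 190.2, 448, 93.6, 639 and 69.5 CPM in the controls, so that 2 of the 3 high-Ttr controls were the highest and the third the lowest of their group. The 7 dorsal midbrain genes tested were all lower (median -1.02, 1 at that level), and 7 of 9 genes of CA field pyramidal neurons were higher (median 0.55, 2 at that level), with none of either called by edgeR (1 midbrain gene by DESeq2). Leaving out the 4 libraries, 9 of 9 meningeal, 6 of 8 thalamus and habenula and 8 of 8 dorsal midbrain genes were lower, 6, 1 and 1 at that level, and 5 of 9 CA field genes were higher. The part of these lists in the members' values was not tested.

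With exercise against APP/PS1 controls, all 32 genes were lower (47.2% of all genes were), with a median log2 fold change of -2.95 (all genes 0.01). EdgeR called none of them (0.00547% of all genes were called), 31 were lower at an unadjusted p under 0.05 (3.07% of all genes), DESeq2 called 17 lower (0.328% of all) and voom none. Dnaic2, Foxj1 and Slc13a4 did not overlap between the groups, beside 0.328% of all genes in that direction. Mlf1 had a log2 fold change of -3.34 (SE 0.69), Dnaic2 one of -1.11 (SE 0.23) and Kcnj13 one of -3.70 (SE 0.79), each at an edgeR adjusted p of 0.252. Ttr had one of -7.36 (SE 1.75, edgeR adjusted p = 0.252) and Foxj1 one of -1.22 (SE 0.30, edgeR adjusted p = 0.259). Leaving out control replicate 1, which had 5.05 CPM of Ttr, brought 9 members past the threshold, beside 27 of all genes tested. Leaving out control replicate 3, which had 1.62 CPM, brought 2, beside 5 of all genes tested. When the 4 libraries were left out the median was -0.19 over 31 genes, 22 lower and 9 higher, and Ttr turned to 0.27 (edgeR adjusted p = 0.967). The 7 ciliary genes were still all lower there, with a median of -0.61 and 3 at an unadjusted p under 0.05, namely Dnaic2 (-0.98), Mlf1 (-1.67) and Foxj1 (-0.61), each at an edgeR adjusted p of 0.883. No choroid gene reached that level, and 2.46% of all genes were lower at it. In the same fit all 8 dentate granule neuron genes were higher with exercise (median 0.67, 0 at that level). Control replicate 3, which stays in this fit, had the lowest sum of those genes among the controls (394 CPM) and the highest sum over 7 oligodendrocyte genes (9098 CPM). The part of such differences in the ciliary values was not tested.

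With BCI-838 against APP/PS1 controls, 31 of 32 genes were lower (49.9% of all genes were), at a median of -2.93 on the log2 scale (all genes 0.00). Otx2 was the 1 higher. None was called by edgeR (0% of all genes were), 28 were lower at an unadjusted p under 0.05 (5.96% of all genes), DESeq2 called 20 lower (0.799% of all) and voom 6. The groups did not overlap for Calml4, Mlf1, Trpv4, Foxj1 and Slc13a4, beside 2.2% of all genes in that direction. Calml4 was at 0, 0.0172, 0.0337 and 0.0341 CPM with BCI-838, against 0.0609, 1.98, 0.616, 5.38 and 3.00 CPM in controls (log2 fold change -6.55, SE 1.37, edgeR adjusted p = 0.165). F5 had a log2 fold change of -5.18 (SE 1.20) and Mlf1 one of -3.14 (SE 0.74), both at an edgeR adjusted p of 0.170. Ttr had one of -8.85 (SE 2.09, edgeR adjusted p = 0.170) and Foxj1 one of -1.16 (SE 0.32, edgeR adjusted p = 0.210). Leaving out control replicate 1 brought 1 member, Calml4, past the threshold (edgeR adjusted p = 0.043), beside 12 of all genes tested. In the 20 other libraries the median was -0.33 over 31 genes, 21 lower and 10 higher, and all 7 ciliary genes were still lower, with a median of -0.99 and 1 at an unadjusted p under 0.05. Over all 31 genes, 2 were lower and 1 higher at that level (2.38% and 3.1% of all genes). Calml4 was then at -3.85 (edgeR adjusted p = 0.889) and Ttr at -1.22 (edgeR adjusted p = 0.889). Tmem212 had no count in any BCI-838 library, and set against the floor of 3 counts over the group it was at least 188-fold lower than in the controls. Of the 709 counts of the controls, 12 came from replicates 1 and 3, and the bound was 103-fold without control replicate 4 and 7.31-fold without the 3 high-Ttr controls. Over all libraries, 6 of 7 dorsal midbrain genes tested were higher with BCI-838 (median 1.87, 0 at an unadjusted p under 0.05). Lower were 5 of 8 thalamus and habenula genes (median -0.95, 3 at that level) and 5 of 8 dentate granule neuron genes (median -0.37, 3 at that level). EdgeR called none of these, and DESeq2 called 2 granule neuron genes lower. The part of these lists in the members' values was not tested.

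**Figure D5:**
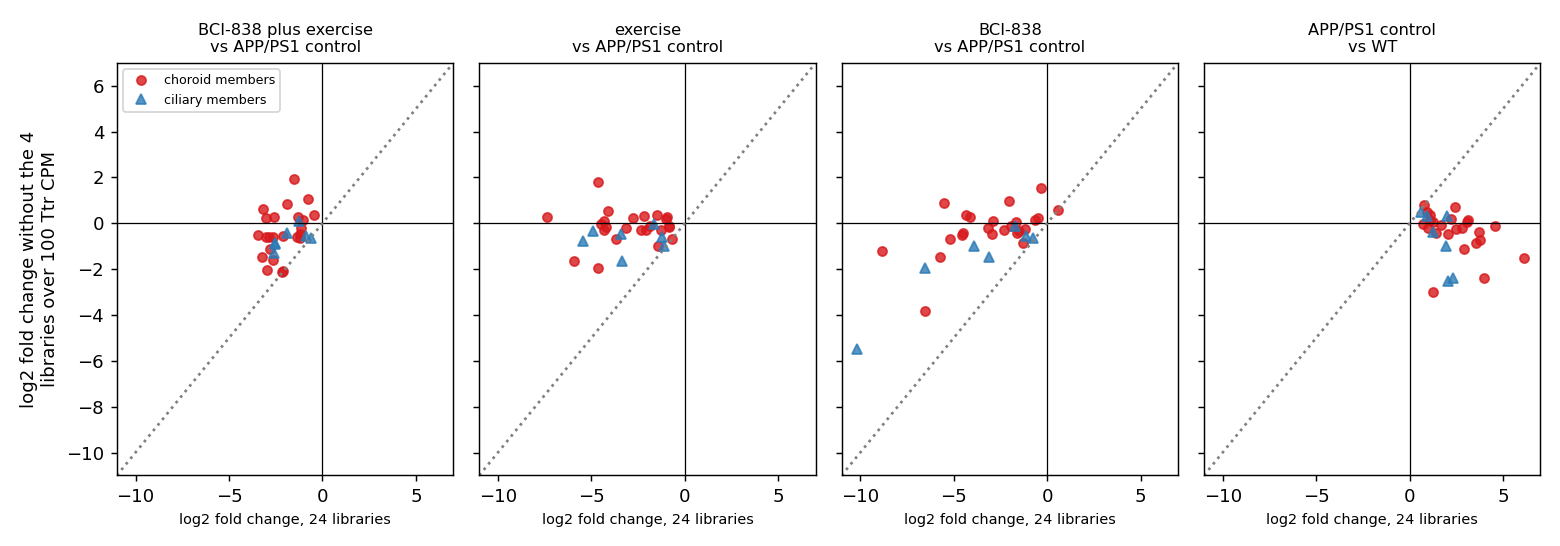
Log2 fold change of each gene without the 4 libraries over 100 Ttr CPM (y axis) against that over all 24 libraries (x axis), in 4 comparisons; circles are choroid genes, triangles ciliary genes, and the dotted line marks equal values. Most points lie near 0 on the y axis, and the medians without those libraries are -0.56 for BCI-838 plus exercise, -0.19 for exercise and -0.33 for BCI-838 against controls and -0.20 for controls against WT.

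APP/PS1 controls against WT ask what the transgenes change without drug or exercise. All 32 genes were higher in the controls (47.4% of all genes were), with a median log2 fold change of 2.05 (all genes -0.01). EdgeR called none of them (0.0109% of all genes were called), 27 were higher at an unadjusted p under 0.05 (2% of all genes), DESeq2 called 6 higher (0.0766% of all) and voom none. Mia1, the member without overlap (0.186% of all genes in that direction), had a log2 fold change of 2.43 (SE 0.55), Aqp1 one of 2.81 (SE 0.64) and Kcne2 one of 4.56 (SE 1.04), each at an edgeR adjusted p of 0.772. Ttr had one of 6.11 (SE 1.64, edgeR adjusted p = 1) and Foxj1 one of 0.93 (SE 0.30, edgeR adjusted p = 1). Without the 4 libraries, 12 of 31 genes were higher and 19 lower, with a median of -0.20 and 3 lower at an unadjusted p under 0.05 (2.07% of all genes). Ttr then stood at -1.52 (edgeR adjusted p = 0.981), Aqp1 at -0.20 and Kcne2 at -0.11 (edgeR adjusted p = 0.987 and 0.993), and Mia1 at 0.71 (edgeR adjusted p = 0.981).

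The treated groups were also set against WT. With BCI-838 plus exercise 20 of 32 genes were higher (48.3% of all genes were) and 12 lower, at a median log2 fold change of 0.13. EdgeR called none (0.0164% of all genes were called), 1 was higher and 1 lower at an unadjusted p under 0.05 (2.35% and 3.97% of all genes). DESeq2 called none (0.0328% higher and 0.0273% lower of all genes), nor did voom. Those were Mia1 (log2 fold change 1.36, SE 0.54, edgeR adjusted p = 0.674) and Slc13a4 (-1.26, SE 0.46, edgeR adjusted p = 0.666). Ttr had a log2 fold change of 2.67 (SE 1.42, edgeR adjusted p = 0.827), which turned to -2.04 without BCI-838 plus exercise replicate 5, and Foxj1 one of 0.04 (SE 0.30, edgeR adjusted p = 0.989), which turned to -0.22 without that library, to -0.047 without replicate 4 of the same group and to -0.0026 and -0.034 without WT replicates 4 and 5. Without the 4 libraries, 25 of 31 genes were lower, with a median of -0.99. Leaving out libraries by their Ttr level takes the highest Ttr library from the treated group and none from WT. That choice favours lower values, so the tests that follow are not independent of it. At an unadjusted p under 0.05, 13 were then lower and none higher (3.92% of all genes were lower), among them Ttr (-2.04, SE 0.55, edgeR adjusted p = 0.563), Slc13a4 (-1.62, SE 0.48, edgeR adjusted p = 0.573) and Dynlrb2 (-1.83, SE 0.65, edgeR adjusted p = 0.654). EdgeR called none of them.

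Exercise against WT gave 26 of 32 genes lower (49.8% of all genes were), at a median log2 fold change of -0.44, and BCI-838 against WT 24 of 32 lower (51.2% of all genes), with a median of -0.38. Neither comparison holds a library over 100 Ttr CPM, so leaving out the 4 barely moved the fold changes, with medians of -0.41 and -0.38 over the 31 genes tested in both fits, but it changed the SEs and p-values. Called by edgeR were 0 in both (0.0109% and 0.0328% of all genes were called). Voom called none, beside 468 of all genes with exercise and 181 with BCI-838. DESeq2 called none either, beside 0.0164% of all genes in each direction with exercise and 0.137% higher and 0.273% lower with BCI-838. At an unadjusted p under 0.05, 3 members were lower with exercise (4.13% of all genes), and 4 were lower and 1 higher with BCI-838 (4.35% and 3.12%). In the fit without the 4 libraries 8 of 31 were lower with exercise (4.05% of all genes), and 9 were lower and 1 higher with BCI-838 (4.57% and 3.3%), with none called by edgeR. The 8 were Ttr, Calml4, 2310007L24Rik and the ciliary genes Dnaic2, Tmem212, Mlf1, Dynlrb2 and Ccdc153, and the 9 were Ttr, Calml4, 2310007L24Rik, F5, Lbp, Slc4a5, Tmem212, Dynlrb2 and Ccdc153. With exercise, Dnaic2 had a log2 fold change of -0.48 (SE 0.23) and Calml4 one of -2.17 (SE 1.04), both at an edgeR adjusted p of 0.549. 2310007L24Rik had an edgeR adjusted p of 0.481 from 1 count in the exercise group and 37 in WT, a ratio of 0.0251 with an exact 95% interval of 0.000619 to 0.149 that covers counting error only. It was also the one member whose exercise libraries all lay below the WT libraries (0.383% of all genes did so). With BCI-838, Calml4 had a log2 fold change of -4.09 (SE 1.37, edgeR adjusted p = 0.436). 2310007L24Rik (edgeR adjusted p = 0.454) again had 1 count, a ratio of 0.0307 with an interval of 0.000758 to 0.182, and Tmem212 (edgeR adjusted p = 0.566) was at least 38.7-fold lower against the floor of 3 counts over the group. WT replicate 1 held 96 of the 132 counts of Tmem212 in WT mice, and without it the bound was 13.0-fold. All 4 BCI-838 libraries lay below every WT library for Ttr, Calml4, Ccdc153, Slc4a5 and 2310007L24Rik (1.77% of all genes did so). Ttr had a log2 fold change of -2.74 (SE 1.67, edgeR adjusted p = 0.771) with BCI-838 and -1.25 (SE 1.41, edgeR adjusted p = 0.801) with exercise, and Foxj1 one of -0.23 (SE 0.31, edgeR adjusted p = 0.920) and -0.29 (SE 0.30, edgeR adjusted p = 0.768). The value of Ttr without the 4 libraries was still -2.74 with BCI-838, at an SE of 0.57 (edgeR adjusted p = 0.0939), and -1.25 with exercise, at an SE of 0.49 (edgeR adjusted p = 0.549). Those SEs and p-values come after libraries were left out for high Ttr, which narrows the shared spread of Ttr. They are therefore no support for a difference in Ttr.

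The combined treatment was set against each single one. Against exercise alone, 26 of 32 genes were higher (46.6% of all genes were), at a median log2 fold change of 0.78. EdgeR called none (0% of all genes were), 3 were higher at an unadjusted p under 0.05 (8.73% of all genes). DESeq2 called none (1.23% higher and 1.02% lower of all genes), nor did voom, which called 1012 of all genes. The 3 were Ttr (log2 fold change 3.92, SE 1.51, edgeR adjusted p = 0.195), Dnaic2 (0.49, SE 0.23, edgeR adjusted p = 0.276) and 2310007L24Rik (edgeR adjusted p = 0.163), the last with 32 counts against 1, a ratio of 32.4 with an exact 95% counting interval of 5.41 to 1318. Foxj1 had a log2 fold change of 0.34 (SE 0.30, edgeR adjusted p = 0.569). Without BCI-838 plus exercise replicate 5, Ttr turned to -0.79 (edgeR adjusted p = 0.785), and without the 4 libraries the median was -0.33, with 1 higher and 2 lower at an unadjusted p under 0.05 (6.99% and 7.02% of all genes).

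Against BCI-838 alone, 26 of 32 genes were higher (48.7% of all genes were), at a median of 0.60. EdgeR called none (0% of all genes were), 6 were higher and 1 lower at an unadjusted p under 0.05 (7.48% and 6.84% of all genes), DESeq2 called 2 higher (1.1% of all) and voom 1 lower. Ttr had a log2 fold change of 5.41 (SE 1.83, edgeR adjusted p = 0.207), Calml4 one of 3.91 (SE 1.37, edgeR adjusted p = 0.214) and Foxj1 one of 0.27 (SE 0.31, edgeR adjusted p = 0.755). Otx2 was lower in every combined-treatment library (log2 fold change -2.71, SE 0.93, edgeR adjusted p = 0.208; 3.94% of all genes did not overlap in that direction), and 7 of 7 tested dorsal midbrain genes were lower too, 5 at an unadjusted p under 0.05, none called by edgeR and 1 by DESeq2. Without the 4 libraries the median over 31 genes was 0.003, with 2 higher and 5 lower at an unadjusted p under 0.05 (5.42% and 5.61% of all genes), and Ttr stood at 0.70 (edgeR adjusted p = 0.695).

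The interaction of drug and wheel asks whether the difference that BCI-838 made in mice with a wheel equals the one it made in mice without. It was positive for 31 of 32 genes (47.5% of all genes), with a median of 3.36. EdgeR called none (0% of all genes were), 26 were positive at an unadjusted p under 0.05 (5.37% of all genes), DESeq2 called 16 (0.377% of all) and voom none. Ttr had an interaction of 12.77 (SE 2.58) and Calml4 one of 8.54 (SE 1.71), both at an edgeR adjusted p of 0.272, as did 2310007L24Rik, whose value rests on 1 count in each of the exercise and BCI-838 groups. Foxj1 had one of 1.49 (SE 0.43, edgeR adjusted p = 0.327). Without the 4 libraries the median was 0.10 with 16 positive and 15 negative, Ttr stood at 0.43 (edgeR adjusted p = 1), and the 7 ciliary genes kept a positive sign with a median of 1.00 and 1 at an unadjusted p under 0.05, where 3 of the 31 were positive (1.59% of all genes).

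Other genes of both layers gave a wider view. Of 27 further choroid plexus genes tested, 26 were lower with BCI-838 plus exercise than in APP/PS1 controls, 25 with exercise and 23 with BCI-838, beside 51.4%, 47.2% and 49.9% of all genes. At an unadjusted p under 0.05, 17, 12 and 12 of them were lower, beside 5.73%, 3.07% and 5.96% of all genes. Against WT, 25 were higher in the controls (47.4% of all genes), 16 at that level (2% of all genes). Of 47 further motile cilia genes, 44, 44 and 45 were lower with the same treatments and 20, 28 and 32 at that level, and 46 were higher in the controls than in WT, 19 at that level. EdgeR called none in either list in these comparisons, and DESeq2 called 3, 2 and 3 choroid and 1, 12 and 11 cilia genes lower in the treated groups and 1 choroid gene higher in the controls. Their median log2 fold changes were smaller than those of the 32 genes, -0.86, -0.58 and -0.47 for the choroid list, -0.83, -1.11 and -1.22 for the cilia list, and 0.56 and 0.76 for controls against WT. With the 4 libraries left out, 25 and 34 genes of these lists were examined. Genes that the count table holds under another symbol, such as Dnahc5 for Dnah5 and Gm606 for Gmnc, were not looked up there. Their absence is thus not a failure of the filter on low counts. The values that follow cover fewer genes than those above and do not compare like with like. In the choroid list 16, 11 and 10 were then lower with BCI-838 plus exercise, exercise and BCI-838 than in controls, 2, 1 and 0 of them at an unadjusted p under 0.05, with medians of -0.17, 0.053 and 0.15. In the cilia list 21, 23 and 20 were lower, 1, 1 and 2 at that level, with medians of -0.33, -0.28 and -0.14. Against WT, 14 choroid and 12 cilia genes were higher in the controls, none at that level, with medians of 0.090 and -0.11. The summed level of the 47 cilia genes was 366 CPM in BCI-838 plus exercise replicate 5 and 536, 592 and 464 CPM in control replicates 2, 4 and 5, against 247 to 451 CPM in the other 20 libraries. By this sum the 3 controls lay above those 20, and BCI-838 plus exercise replicate 5 lay among them. The 7 ciliary members differed, with a sum of 29.6 CPM in that library and at most 23.6 CPM in those 20. In WT replicates 1 to 5 the sum of the 47 was 302, 344, 248, 451 and 388 CPM. The 8 dentate granule neuron genes summed to 626, 1135, 268, 1351 and 1346 CPM there, the same order. In the exercise libraries the orders differed. The part of neurons in the sum of the 47 was not tested.

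Of the 32 genes, 8 share exonic sequence with another annotated gene. Kcnj13 overlaps Gigyf2 on the opposite strand, Rdh5 overlaps Bloc1s1 on its own strand, and Otx2, Prlr, Enpp2, F5, Ace and Mia1 overlap predicted or noncoding genes. The sources used here do not say whether the counting used strand, and reads of those partners may be counted with them.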

How the data were processed

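RNA of the dentate gyrus of 24 mice was sequenced. The authors deposited a table of whole-number counts per gene for the whole series, made with STAR, HTSeq and DESeq on mm10 per the submitters' processing notes; the sources used here give no versions, read layout or strand setting. A second deposited table of normalised values was not used. Groups came from the labels, and replicates are described as separate mice. No 2 libraries agreed within sampling noise (lowest chi-square per gene 18.6).

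The counts were filtered with filterByExpr (minimum count 10, minimum total 15), which kept 18286 of 26667 genes, scaled by TMM, and fitted by edgeR 4.0.16 in R 4.3.3 (robust quasi-likelihood, all groups in 1 fit). The SE of a log2 fold change was taken from its F statistic, as the change over the root of F. DESeq2 1.42.0, limma 3.58.1 (voom with quality weights), other filters and scalings, a replicate block, the compared groups alone and leaving out libraries were alternatives. Leaving out the 4 libraries over 100 Ttr CPM was chosen after seeing the data. The fits were checked on simulated counts. Coordinates and exon lengths are from GENCODE M21 (GRCm38, which mm10 names). The members and lists were chosen with earlier results of these data known. In each comparison fold changes are given for Ttr, Foxj1 and the called members, or the 3 with the smallest p where fewer than 3 were called. Ratios to Ttr and promoter motifs are descriptions.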

Additional observations from a re-analysis of the deposited data

Results flagged for a closer look

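Within the groups of 4 or 5 libraries, 28 of 160 combinations of a gene and a group had 1 library far from the rest, with a gap to its nearest neighbour that filled most of the group's range. The cut-off gives about 1 in 20 for independent values with a normal spread. These genes vary together and some have few counts, so the number flagged is a description and not a test. Of these, 15 were in BCI-838 plus exercise replicate 5, the one library of its group over 100 Ttr CPM: Ttr at 297 CPM, Folr1 at 2.46, Clic6 at 8.36, Kcne2 at 1.97, Kcnj13 at 2.01, Calml4 at 1.34, Slc4a5 at 2.67, Cldn2 at 1.59, Steap1 at 0.5676, F5 at 4.45, Tmem72 at 1.51, Lbp at 5.81, Ccdc153 at 7.04, Tmem212 at 2.02 and Dynlrb2 at 0.946 CPM. All 15 were high.

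WT replicate 1 was far above the other WT libraries for Folr1 (0.751 CPM), Calml4 (0.989 CPM), Tmem212 (1.898 CPM) and Dynlrb2 (0.989 CPM). Control replicate 4 was far above the other controls for Foxj1 (26.6 CPM) and 2310007L24Rik (1.14 CPM). In exercise replicate 4, Ace, the angiotensin-converting enzyme, was high at 20.2 CPM and Mia1 low at 0.162 CPM. The remaining ones rest on few reads. Kcne2 was high at 0.318 CPM in BCI-838 replicate 1, Kcnj13 low at 0.292 CPM in BCI-838 replicate 2, and Slc4a5 low at 0.0505 CPM in BCI-838 replicate 3. 2310007L24Rik had its group's only count in BCI-838 replicate 4 (0.0171 CPM) and in exercise replicate 1 (0.0180 CPM).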

How the results depend on the processing

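Of 355 alternative values for the genes named with a fold change, other than those that leave out 1 library, 320 kept their direction and their side of the threshold, 25 passed the threshold in addition and 10 reversed. Counts of members called stayed at 0 under both other filters, the DESeq size factors, the compared groups alone and the replicate block, in all 10 comparisons. DESeq2 called 6 members in controls against WT, 6 in BCI-838 plus exercise against controls, 2 in BCI-838 plus exercise against BCI-838, 20 in BCI-838 against controls, 17 in exercise against controls and 16 in the interaction. Voom called 6 in BCI-838 against controls, beside 483 of all genes. It called 1, Otx2, in BCI-838 plus exercise against BCI-838, beside 936 of all genes. With no member called, it called 1012 genes in BCI-838 plus exercise against exercise, 468 in exercise against WT and 181 in BCI-838 against WT. In the remaining comparisons it called at most 2 genes and no member. The cause was not tested.

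Leaving out 1 library at a time gave 0 to 1 members called for BCI-838 against controls and 0 to 9 for exercise against controls. Both were highest without control replicate 1, where 12 and 27 of all genes tested were called. In the other 8 comparisons 0 members were called. Log2 fold changes ran from -2.04 to 2.98 for Ttr and from -0.22 to 0.21 for Foxj1 in BCI-838 plus exercise against WT, and from -0.79 to 4.33 for Ttr in BCI-838 plus exercise against exercise; each was lowest without BCI-838 plus exercise replicate 5. Leaving out that library also gave the lowest Ttr value for BCI-838 plus exercise against controls (-8.17 to -2.79, the highest without control replicate 4), for BCI-838 plus exercise against BCI-838 (0.70 to 5.84) and for the interaction (8.08 to 13.21).

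Without the 4 libraries over 100 Ttr CPM, Aqp1 (-0.20), Kcne2 (-0.11) and Ttr (-1.52) reversed in controls against WT, Ttr in exercise against controls (0.27), Ttr in BCI-838 plus exercise against exercise (-0.79), and Ttr (-2.04) and Foxj1 (-0.22) in BCI-838 plus exercise against WT. In that last comparison voom reversed Ttr (-0.67) and Foxj1 (-0.029), and the replicate block reversed Foxj1 (-0.060); the cause of these 3 was not tested.

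Replicate numbers do not pair the mice: over 46 pairs with the same number, the correlation of deviations from group means had a median of -0.006 and ran from -0.38 to 0.40, with 10 pairs over 0.1, and 6 of 24 libraries correlated best with their own number. The replicate block gave 0 members called in every comparison. With only 2 controls left, the fits without the 4 libraries have little precision for any comparison with controls. The 8 dentate granule neuron genes summed to 922 and 394 CPM in these controls, replicates 1 and 3, beside 1085 to 1483 CPM in the controls left out.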
